A study of Homo sapiens with 2 samples.

Results

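The enzymes that make serine and move its one-carbon unit onto folate were compared between cells that overexpressed CBS and cells that carried an empty vector. They were 10 genes chosen by symbol, namely PHGDH, PSAT1, PSPH, SHMT1, SHMT2, MTHFD1, MTHFD2, MTHFD1L, MTHFD2L and ALDH1L2, of 60619 genes in the deposited tables. All 10 were found, and 9 passed the filter on low counts, which kept 13304 genes. CBS encodes cystathionine beta-synthase, which joins serine to homocysteine in the first step of transsulfuration, so it draws on the product of this pathway. The design asked how CBS expression bears on Polycomb repressive complex 2.

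Both libraries came from HBEC-3KT, a single line of human bronchial epithelial cells immortalized with CDK4 and TERT. One library was made from cells transduced with the pLenti6 lentivirus carrying human CBS, and the other from cells transduced with pLenti6 alone. Exposure to virus lasted 4 to 8 hours, selection used blasticidin at 10 µg/mL, and cells grew for 4 to 5 days on gelatin-coated plates. Total RNA was sequenced, giving a depth of 20786049 estimated counts in CBS cells and 20433114 in empty-vector cells. There was 1 library per group, so no test between the conditions was possible and no difference given here has a replicate check. Intervals are exact 95% intervals that cover counting error only. CBS itself, higher as labelled, reached 3669 counts in CBS cells, against 280 in empty-vector cells. All 9 airway basal markers passed the filter, 2 called higher and 4 lower, against 7.02% and 12.9% of all genes. Their summed level was 3018 TPM (a level scaled for transcript length and depth) in CBS cells and 5205 TPM in empty-vector cells. Markers of other cell types were fewer. Of 7 ciliated markers, 3 passed the filter, with a sum over the list of 3.72 TPM in CBS cells and 4.10 TPM in empty-vector cells; DNAH5 was called higher, and FOXJ1 had no count in either library. Of 6 fibroblast markers 1 passed, COL1A1, which was called lower, and 4 including DCN had no count; the sums were 3.18 TPM in CBS cells and 3.91 TPM in empty-vector cells. Of 6 immune markers 2 passed, and PTPRC had no count; the sums were 48.7 TPM in CBS cells and 144 TPM in empty-vector cells, mostly CD68, which was called lower. Of 5 endothelial markers 2 passed, and CDH5 was called higher with 87 counts in CBS cells and 7 in empty-vector cells; the sums were 8.40 TPM in CBS cells and 9.47 TPM in empty-vector cells. None of 7 secretory markers passed. The part of these differences in the results was not tested.

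Serine is made from the glycolytic intermediate 3-phosphoglycerate by PHGDH, PSAT1 and PSPH in turn. Serine hydroxymethyltransferases then split serine into glycine and a one-carbon unit held by tetrahydrofolate. The folate steps run in parallel in the cytosol, with SHMT1 and MTHFD1, and in mitochondria, with SHMT2, MTHFD2 or MTHFD2L, MTHFD1L and ALDH1L2. In many proliferating cells the mitochondrial steps release formate, which the cytosolic enzymes use for purine and thymidylate synthesis.

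In scaled counts the cytosolic folate enzymes stood higher in the CBS library. The serine synthesis and mitochondrial enzymes that passed the filter lay between 0.794-fold and 1.29-fold of their level in the empty-vector library. In the authors' TPM that range was 0.885-fold (MTHFD2) to 1.45-fold (MTHFD1L). Mitochondrial MTHFD1L thus stood beside cytosolic MTHFD1, at 1.44-fold, and only SHMT1 stood apart in TPM. In counts SHMT1 was 1.95-fold higher and MTHFD1 was 1.52-fold higher. These were the only members that reached a 1.5-fold difference with an interval that excluded a ratio of 1. MTHFD2 was the member furthest below a ratio of 1 among those that passed the filter, at 0.794-fold. Of the 9 members above the filter, 2 were thus called higher and none was called lower. Over all 13304 genes, 7.02% were called higher and 12.9% lower by the same rule. Intervals excluded a ratio of 1 for 8 of the 9 members, against 62.7% of all genes, with 6 above and 2 below, against 31.6% and 31.1% of all genes. More counts narrow an interval. Each of the 9 except MTHFD2L had at least 654 counts in each library, and the filter admits genes with far fewer. No member above the filter reached 2-fold in scaled counts, where 1.41% of all genes were higher and 5.28% lower. In the authors' TPM SHMT1 was 2.17-fold higher. At a laxer threshold of 0.32 on the log2 scale, 4 members were higher and 1 was lower, and the shares of all genes were 19.2% and 21.6%. The balance over all genes depended on scaling: 934 genes were called higher and 1712 lower here, and 1279 and 1466 when scaled by library totals. In TPM they were 1221 and 1110, but there 1 was added to each TPM and the interval rule was dropped. The TPM counts therefore differ by more than scaling. Library totals shifted the median log2 fold of all genes to 0.07 and TPM shifted it to 0.09. The median log2 fold was 0.27 over the 9 members and 0.00 over all genes. The members were chosen with earlier results of these data known, so these shares describe the libraries and are not a test.

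**Figure D1:**
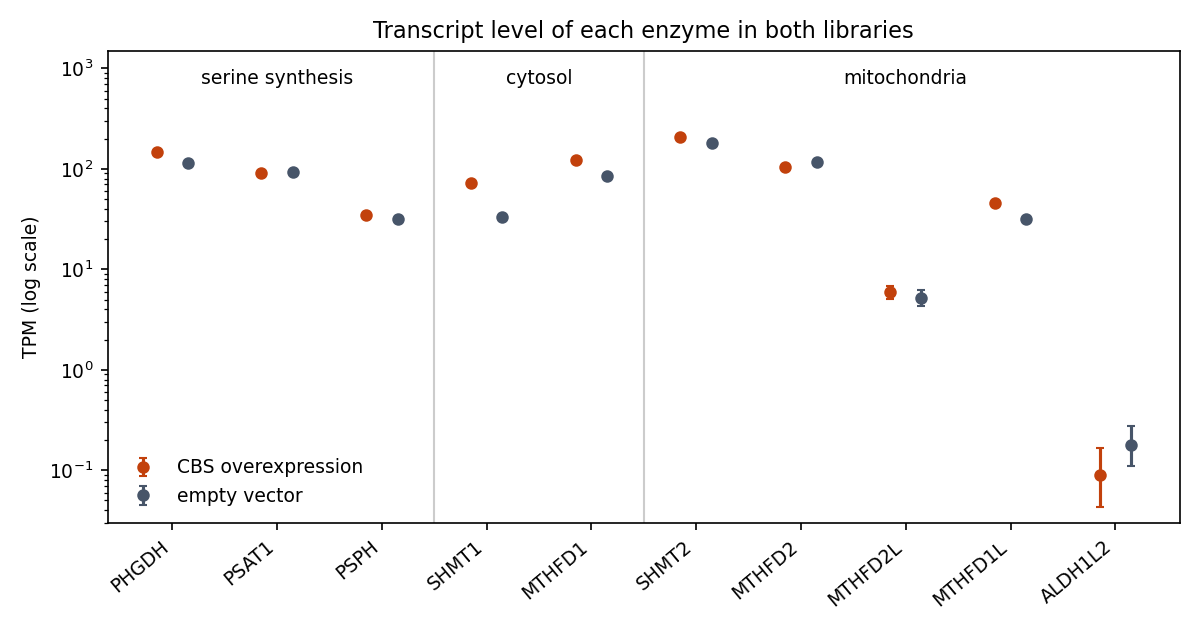
Level of each enzyme in TPM (log scale), with CBS overexpression in orange and the empty vector in grey. Bars are 95% Poisson intervals of the counts, often smaller than the points. SHMT2 was the most abundant member in both libraries, and ALDH1L2 stood near 0.1 TPM.

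Levels of different genes are compared in TPM. SHMT2 was the most abundant of the 10 members in both libraries, with 207 TPM in CBS cells (95% counting interval 201 to 213) and 181 TPM in empty-vector cells (176 to 186). That placed it at percentile 95.1 of the genes above the filter in CBS cells and percentile 94.6 in empty-vector cells. In CBS cells the order went on with PHGDH, MTHFD1, MTHFD2, PSAT1, SHMT1, MTHFD1L, PSPH, MTHFD2L and ALDH1L2, and the counting intervals of no neighbours in that order overlapped. In empty-vector cells the second place was held by MTHFD2 at 118 TPM, with PHGDH at 114 TPM, and their intervals overlapped (113 to 122 and 110 to 118). SHMT1, PSPH and MTHFD1L could not be ordered in empty-vector cells, at 33.5, 31.8 and 31.6 TPM with overlapping intervals. In CBS cells these genes were spread out, with SHMT1 at 72.7, MTHFD1L at 45.6 and PSPH at 34.6 TPM.

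The 3 enzymes of serine synthesis had no common direction. PHGDH, which oxidizes 3-phosphoglycerate in the committed step (ENSG00000092621, GRCh38 chromosome 1, 119659798 to 119744215), had 3974 counts in CBS cells, against 3078 in empty-vector cells. It was 1.21-fold higher (1.15 to 1.26), at 148 TPM in CBS cells and 114 TPM in empty-vector cells. PSAT1, the aminotransferase of the next step (ENSG00000135069, chromosome 9, 78297143 to 78330093), was covered by 2665 counts in CBS cells and 2686 in empty-vector cells. Its ratio after scaling was 0.927 (0.878 to 0.978), and its levels of 91.7 TPM in CBS cells and 92.2 TPM in empty-vector cells were nearly equal. PSPH, the phosphatase that releases serine (ENSG00000146733, chromosome 7, 56011051 to 56051604), had 742 (CBS) and 654 (empty vector) counts, and its ratio of 1.06 had an interval that held 1 (0.953 to 1.18). Summed over the 3 genes, the level was 275 TPM in CBS cells and 238 TPM in empty-vector cells, and the ratio of summed counts was 1.07 (1.04 to 1.11). PHGDH alone supplied most of that difference in TPM.

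Between the 2 serine hydroxymethyltransferases the difference lay with the cytosolic one. SHMT1 (ENSG00000176974, chromosome 17, 18327860 to 18363563) had 2333 counts (2239 to 2430) in CBS cells, against 1116 counts (1052 to 1183) in empty-vector cells, with no overlap. Its log2 fold was 0.96 (0.86 to 1.07), at percentile 98.4 of all genes above the filter, and its level of 72.7 TPM in CBS cells was 2.17-fold the 33.5 TPM in empty-vector cells. SHMT2, the mitochondrial enzyme (ENSG00000182199, chromosome 12, 57229327 to 57234935), had a log2 fold of 0.07 (0.01 to 0.13) from 4775 (CBS) and 4257 (empty vector) counts. The log2 fold of SHMT1 exceeded that of SHMT2 by 0.90 (0.78 to 1.02), and scaling of whole libraries cancels out of this difference. SHMT2 transcripts outnumbered those of SHMT1 2.85-fold in CBS cells and 5.41-fold in empty-vector cells, by TPM. SHMT1 thus made up 26.0% of the pair in CBS cells and 15.6% in empty-vector cells. In GENCODE 29, SHMT1 shares 196 exon bases with SMCR8 on the opposite strand, which had 800 (CBS) and 601 (empty vector) counts. Whether the authors counted by strand was not given in the sources used here.

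MTHFD1, the cytosolic enzyme that carries 3 folate activities and makes 10-formyltetrahydrofolate (ENSG00000100714, chromosome 14, 64388031 to 64463457), had 4694 counts in CBS cells and 2886 in empty-vector cells. Its log2 fold of 0.60 (0.54 to 0.67) stood just above the 1.5-fold line, at percentile 93.4 of all genes. In the authors' TPM it had 123 in CBS cells against 85.6 in empty-vector cells, a ratio of 1.44, which is below that line, and with the trend on GC and length removed its log2 fold was 0.57, also below it. MTHFD1 shares 756 exon bases with the antisense gene AL122035.2, which had 34 (CBS) and 23 (empty vector) counts, and 178 with ZBTB25, which had 254 (CBS) and 233 (empty vector) counts. Together SHMT1 and MTHFD1 reached 195.5 TPM in CBS cells and 119 TPM in empty-vector cells, and the ratio of their summed counts was 1.64 (1.58 to 1.71).

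Among the mitochondrial enzymes, some were higher and one was lower. MTHFD2, the dehydrogenase and cyclohydrolase that is prominent in embryonic and tumour cells (ENSG00000065911, chromosome 2, 74198562 to 74217565), was covered by 2389 counts in CBS cells and 2811 in empty-vector cells. It shares 1324 exon bases with SLC4A5 on the opposite strand, which had 11 (CBS) and 24 (empty vector) counts. Its log2 fold was -0.33 (-0.41 to -0.25), at percentile 23.7 of all genes, and its level was 104 TPM in CBS cells against 118 TPM in empty-vector cells. MTHFD1L, which releases formate from mitochondria (ENSG00000120254, chromosome 6, 150865549 to 151101887), had a log2 fold of 0.36 (0.26 to 0.47) from 1788 (CBS) and 1299 (empty vector) counts. Its level was 45.6 TPM in CBS cells and 31.6 TPM in empty-vector cells, a ratio of 1.45. The ratios of MTHFD2 and MTHFD1L, which act in sequence, therefore lay on opposite sides of a ratio of 1, with intervals that did not overlap.

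MTHFD2L, an isoenzyme of MTHFD2 (ENSG00000163738, chromosome 4, 74114174 to 74303099), was scarce, with 167 counts in CBS cells and 122 in empty-vector cells. Its log2 fold of 0.34 had a wide interval that only just excluded no difference (0.01 to 0.70). MTHFD2 transcripts outnumbered those of MTHFD2L 17.7-fold in CBS cells and 22.8-fold in empty-vector cells, by TPM. The log2 fold of MTHFD2L exceeded that of MTHFD2 by 0.69 in counts (0.33 to 1.05) and by 0.37 in TPM. ALDH1L2, which oxidizes 10-formyltetrahydrofolate to carbon dioxide in mitochondria (ENSG00000136010, chromosome 12, 105019784 to 105084577), had 10 counts (4.8 to 18.4) in CBS cells and 20 counts (12.2 to 30.9) in empty-vector cells. It was listed at 0.09 TPM in CBS cells and 0.18 TPM in empty-vector cells. It did not pass the filter, and its ratio of 0.467 had an interval from 0.195 to 1.05, so no difference was detectable at this depth. It also shares 145 exon bases with C12orf45 on the opposite strand, which had 182 (CBS) and 135 (empty vector) counts, so part of its few counts cannot be assigned with certainty.

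**Figure D2:**
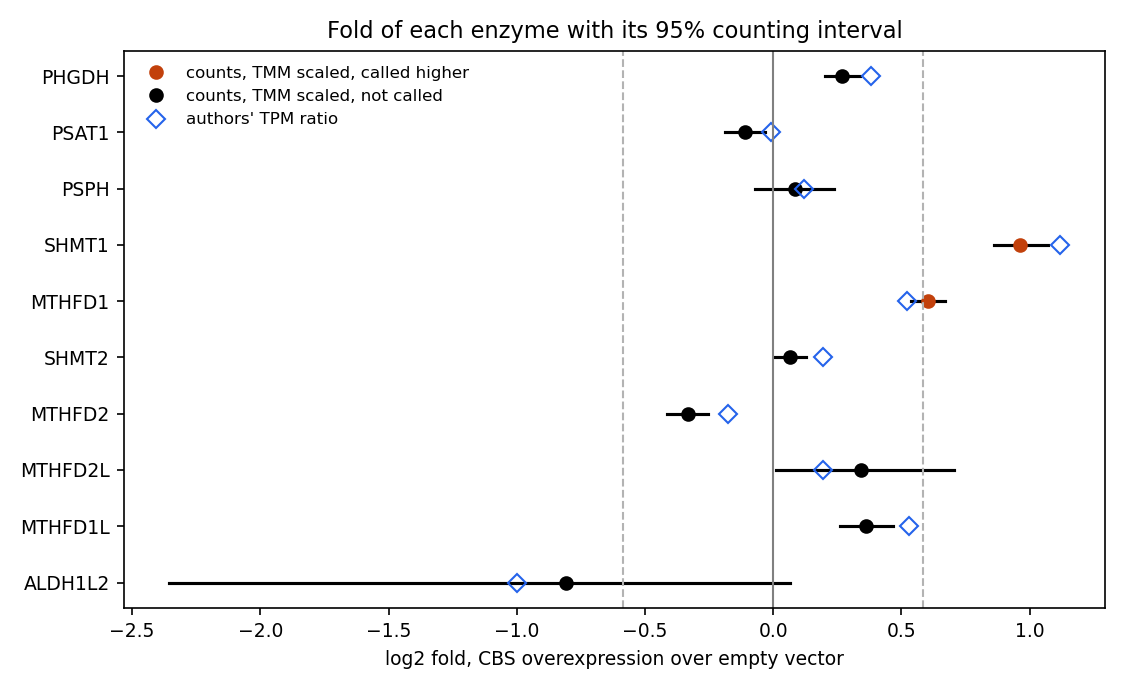
Log2 fold of each enzyme, CBS overexpression over empty vector, from counts with the exact 95% counting interval (circles and lines) and from the authors' TPM without a pseudocount (diamonds); dashed lines mark 1.5-fold. SHMT1 and MTHFD1 lie beyond 1.5-fold in counts, and MTHFD1 falls inside it in TPM.

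Summed over the 5 mitochondrial genes, the level was 363 TPM in CBS cells and 336 TPM in empty-vector cells, and the ratio of summed counts was 1.002 (0.973 to 1.03). The cytosolic pair supplied 23.5% of the TPM of all 10 members in CBS cells and 17.2% in empty-vector cells. Mitochondrial enzymes supplied 43.6% in CBS cells and 48.5% in empty-vector cells, and serine synthesis 33.0% in CBS cells and 34.4% in empty-vector cells. All 10 members together had 833 TPM in CBS cells and 692.5 TPM in empty-vector cells.

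**Figure D3:**
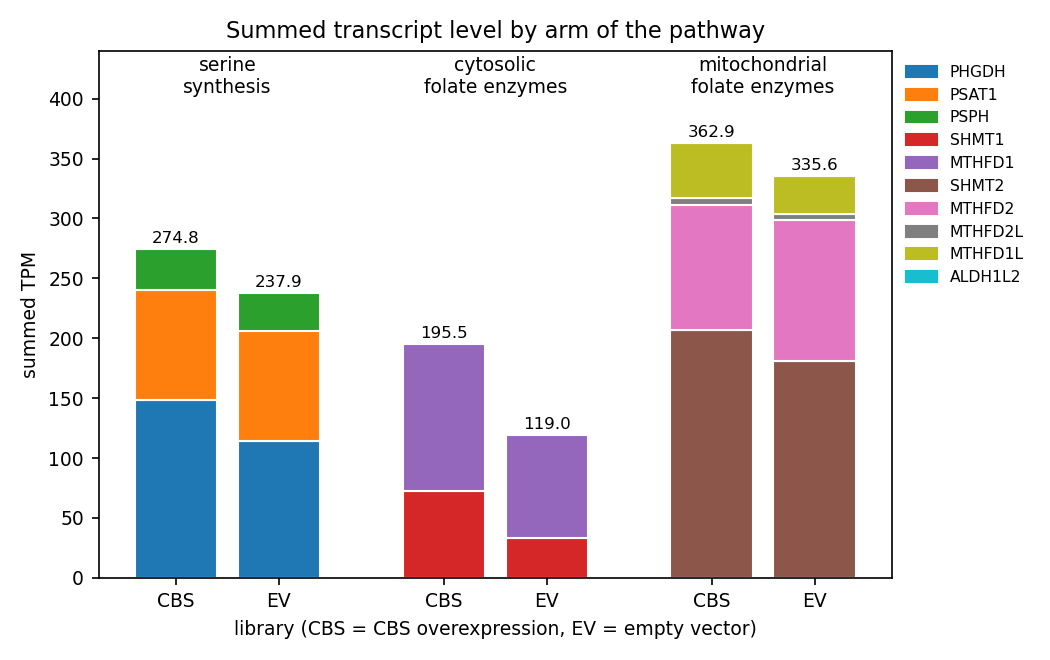
Summed TPM of the enzymes in each arm of the pathway, stacked by gene, for CBS overexpression (CBS) and the empty vector (EV). The cytosolic pair shows the largest relative difference, 195.5 TPM with CBS against 119 TPM with the empty vector, with 1 library per bar.

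The ratio in counts and the ratio in TPM parted for some members. TPM divides counts by a transcript length, so counts per TPM in a library follow the length assigned to the gene there. MTHFD1 had 38.2 counts per TPM in CBS cells and 33.7 in empty-vector cells. For MTHFD2L the values were 28.2 in CBS cells and 23.6 in empty-vector cells. Relative to the median of 10447 well-counted genes, the assigned length was greater in the CBS library by 0.20 on the log2 scale for MTHFD1 and by 0.28 for MTHFD2L. Shifts at least that large in either direction were seen in 12.0% and 6.43% of those genes. PSPH had a shift of 0.08, and the other 6 members above the filter lay between -0.05 and 0.02. MTHFD1 has 16 annotated transcripts of 386 to 6814 bases in GENCODE 29, and MTHFD2L has 15 of 468 to 3181 bases. With this shift, the difference between MTHFD1 and its mitochondrial relative MTHFD1L depended on the unit. The log2 fold of MTHFD1 exceeded that of MTHFD1L by 0.24 in counts (0.12 to 0.36), but by -0.01 in TPM. MTHFD1 made up 72.9% of that pair in CBS cells and 73.1% in empty-vector cells, by TPM.

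**Figure D4:**
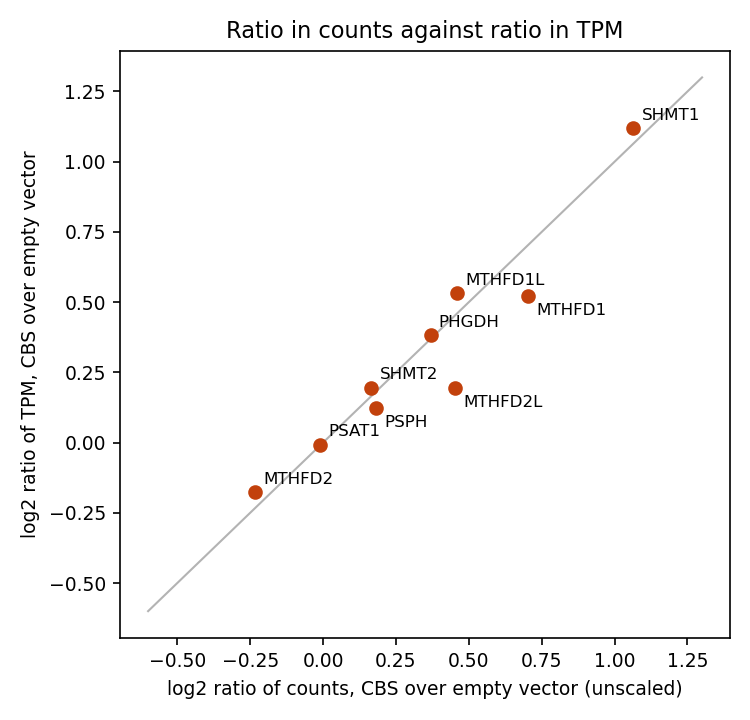
Log2 ratio of CBS overexpression over empty vector in unscaled counts (x axis) and in TPM (y axis) for the 9 enzymes above the filter, 1 point per gene; the line marks equal ratios. MTHFD1 and MTHFD2L lie furthest below the line.

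Pseudogenes of these genes took few of the reads. The table lists 14 pseudogenes named after members, 11 of them without a count in either library, and together they had 7.55 estimated counts in CBS cells and 1.06 in empty-vector cells.

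Promoter sequences were examined because the members did not move together. The RefSeq table for GRCh38.p14 held start sites for 7 of the 10 members. The 250 bases before each start were searched on both strands for 6 motifs. TGATGNAA is the core of the C/EBP-ATF response element bound by ATF4, and CACGTG is the E-box of MYC and related factors. The others were the CCAAT box, the GC box of Sp factors (GGGCGG), the E2F-like TTTNGCGC and the antioxidant element (TGACNNNGC). Matches to different motifs were counted separately. The 7 genes had 11 windows, and some of those of MTHFD1L overlap. The motif TGATGNAA was found in 2 of the 11 windows, both of MTHFD1L, and in 3.1% of all 35116 windows of the table. CACGTG was found in 3 of the 11, of MTHFD1 and MTHFD1L, and in 6.3% of all windows. CCAAT was found in 8 of the 11, of every one of the 7 genes except MTHFD2L, and in 32.0% of all windows. GGGCGG was found in 6 of the 11, of 4 genes, and in 42.6% of all windows. TTTNGCGC and TGACNNNGC were found in none, against 1.5% and 10.9% of all windows. The sequences shown are that of SHMT1, the member furthest above a ratio of 1, that of PSAT1, a serine synthesis gene at the same level in both libraries by TPM, and 30 bases around a match to TGATGNAA or CACGTG in the other pair, which lies 129 and 90 bases before 2 of the starts of MTHFD1L and 15 bases before that of MTHFD1. Capitals mark the motifs. The stretch of SHMT1 is chr17:18363564-18363800 on the minus strand, that of PSAT1 is chr9:78296875-78297124, that of MTHFD1L is chr6:150866346-150866375 and that of MTHFD1 is chr14:64388323-64388352, these last 3 on the plus strand. Only 237 of the 250 bases searched are shown for SHMT1, ending 14 bases before the start, and a further GGGCGG lies 10 bases before it, outside the stretch shown.
SHMT1: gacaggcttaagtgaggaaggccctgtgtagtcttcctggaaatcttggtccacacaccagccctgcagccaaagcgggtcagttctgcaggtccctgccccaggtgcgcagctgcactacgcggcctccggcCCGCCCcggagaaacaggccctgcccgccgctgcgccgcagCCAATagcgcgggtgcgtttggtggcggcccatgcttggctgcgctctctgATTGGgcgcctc
PSAT1: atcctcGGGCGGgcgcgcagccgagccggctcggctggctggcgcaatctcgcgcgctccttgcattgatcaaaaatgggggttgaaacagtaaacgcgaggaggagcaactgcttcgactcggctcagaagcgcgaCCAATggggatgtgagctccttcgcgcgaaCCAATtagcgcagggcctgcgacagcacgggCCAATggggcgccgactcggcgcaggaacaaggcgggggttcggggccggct
MTHFD1L: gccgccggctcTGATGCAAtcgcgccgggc
MTHFD1: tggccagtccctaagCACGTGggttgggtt
In SHMT1 and PSAT1 the capitals are CCAAT or GGGCGG on either strand, in MTHFD1L they are TGATGCAA, and in MTHFD1 they are CACGTG. A match is a description of the letters, and binding was not measured.

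Other genes of the folate cycle were more often above than below a ratio of 1. Of 20 such enzymes and carriers, 17 were above the filter, and their median log2 fold was 0.22. Intervals lay above a ratio of 1 for 9 of them and below it for 3, against 31.6% and 31.1% of all genes. Of these 17, 4 (23.5%) were called higher and 2 (11.8%) lower, against 7.02% and 12.9% of all genes. With at least 100 counts required, the median was 0.46 and 1 gene was called lower. The mitochondrial folate carrier SLC25A32 had 747 counts in CBS cells and 432 in empty-vector cells and a log2 fold of 0.69 (0.52 to 0.87). GART, which uses 10-formyltetrahydrofolate in purine synthesis, had a log2 fold of 0.63 (0.56 to 0.71) from 3692 (CBS) and 2221 (empty vector) counts. With the trend on GC and length removed, SLC25A32 was at 0.55 and GART at 0.57, both under 1.5-fold. MTHFS, which returns 5-formyltetrahydrofolate to the cycle, was lower, at -0.73 (-1.11 to -0.42) from 115 (CBS) and 182 (empty vector) counts. Among the other called genes, named after their values were seen, were the proton-coupled folate transporter SLC46A1, higher, and FOLR3, lower with 13 (CBS) and 29 (empty vector) counts.

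De novo nucleotide synthesis is a main consumer of one-carbon units, but GART, ATIC and TYMS, of its folate-using steps, were listed with the folate cycle instead. The list without them had the highest median of the 5 related gene lists under the filter used here. With at least 100 counts required, the folate cycle list equalled it, both at 0.46. All 17 genes of nucleotide synthesis were above the filter, and their median log2 fold was 0.46. Against 7.02% and 12.9% of all genes, 7 (41.2%) were called higher and none lower. PFAS, of purine synthesis, had 1330 counts in CBS cells and 613 in empty-vector cells and a log2 fold of 1.01 (0.88 to 1.16). PPAT, which commits to purine synthesis, had a log2 fold of 0.96 (0.78 to 1.16) from 713 (CBS) and 341 (empty vector) counts. DHODH and CAD, of pyrimidine synthesis, had log2 folds of 0.79 (0.49 to 1.15) and 0.76 (0.68 to 0.85). DHODH had 6.45 TPM in CBS cells and 4.05 TPM in empty-vector cells, a ratio past 1.5-fold. With 1 added to each TPM, which shrinks folds at low levels, its log2 fold was 0.56, under 1.5-fold.

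Genes that carry or use serine and glycine were mixed. Of 26 genes, 23 were above the filter, and their median log2 fold was 0.09. Against 7.02% and 12.9% of all genes, 5 (21.7%) were called higher and 3 (13.0%) lower. CBS and CBSL, a near-identical copy in this assembly whose reads cannot be separated from those of CBS, are among the 5. Both calls were set by the overexpression of the same gene, so the 21.7% overstates the share among the remaining genes. SFXN2, of the family of mitochondrial serine carriers, was also called higher, at 1.40 (1.15 to 1.74) with 377 counts in CBS cells and 130 in empty-vector cells. So was GCAT, which cleaves a threonine product to glycine, at 0.97 (0.66 to 1.36) with 217 (CBS) and 101 (empty vector) counts.

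Other targets of ATF4 lay mostly below a ratio of 1, while regulators of the enzymes were divided. ATF4 is a stress-induced activator known to act on PHGDH, PSAT1, SHMT2 and MTHFD2, among others. Of 26 ATF4 targets outside the pathway, 25 were above the filter, and their median log2 fold was -0.47. Against 7.02% and 12.9% of all genes, none was called higher and 12 (48%) were called lower. CHAC1, which degrades glutathione, had 238 counts in CBS cells and 1637 in empty-vector cells and a log2 fold of -2.85 (-3.08 to -2.68). DDIT3, the stress factor CHOP, was at -2.38 (-2.76 to -2.12), the sestrin SESN2 at -1.75 (-1.90 to -1.62) and JDP2, a repressor of AP-1, at -1.74 (-2.20 to -1.43). ATF4 itself, named after its values were seen, had a log2 fold of -0.39 (-0.42 to -0.35) from 10629 (CBS) and 12978 (empty vector) counts. Of the 4 members just named as its targets, PHGDH and SHMT2 had an interval above a ratio of 1, and PSAT1 and MTHFD2 one below. SHMT2 (0.01 to 0.13) and PSAT1 (-0.19 to -0.03) only just excluded no difference. The side of PSAT1 depended on scaling, with a log2 fold of -0.04 by library totals and -0.01 in TPM with 1 added. Among 17 regulators, which include kinases upstream of ATF4, 16 were above the filter, with a median of -0.13. Of these, 7 had an interval above a ratio of 1 and 8 below it, against 31.6% and 31.1% of all genes. By the calling rule 1 (6.25%) was higher and 4 (25%) lower, against 7.02% and 12.9% of all genes. With the trend on GC and length removed, 2 were called higher and 1 lower, and by library totals or in TPM 2 were higher and 3 lower. CEBPB and CEBPG, partners of ATF4, were at -0.77 (-0.83 to -0.71) and -0.74 (-0.86 to -0.62), SREBF1, of lipid synthesis, at -0.67 (-0.73 to -0.62), and ATF5, a relative of ATF4, at 0.65 (0.48 to 0.83). With the trend removed CEBPB was at -0.47 and SREBF1 at -0.42, neither past 1.5-fold.

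**Figure D5:**
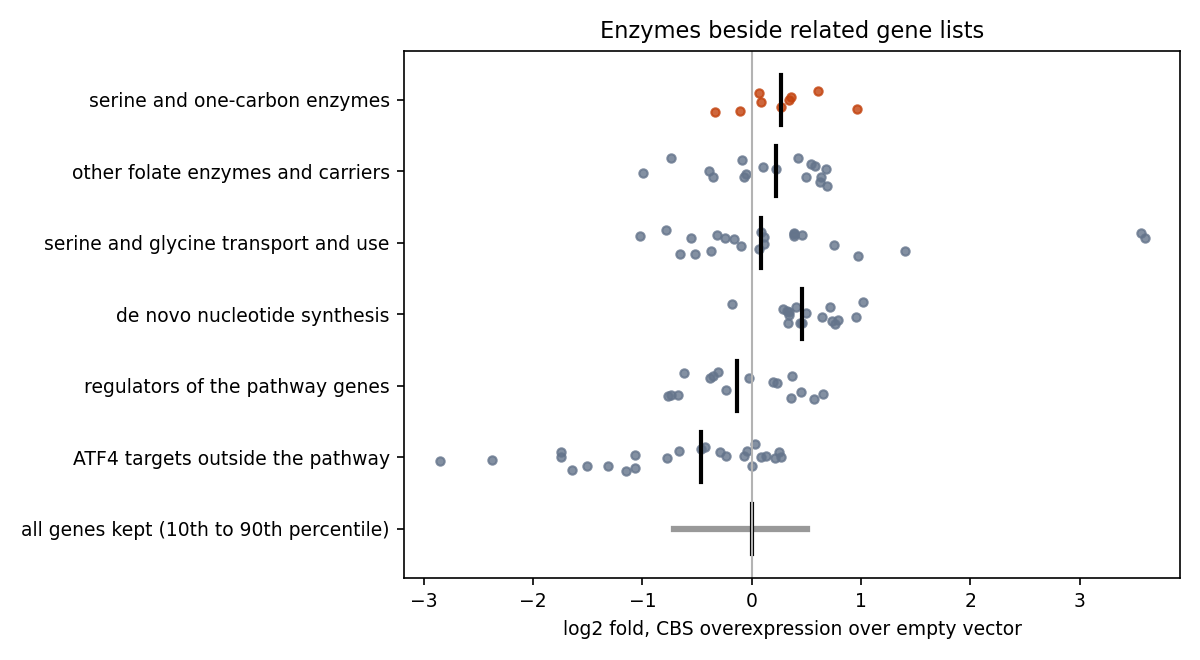
Log2 fold of each gene above the filter, CBS overexpression over empty vector, by list, with 1 point per gene and the median as a black bar; the lowest row gives the median and the 10th to 90th percentile of all 13304 genes. The serine and one-carbon enzymes have a median of 0.27, between nucleotide synthesis at 0.46 and ATF4 targets at -0.47.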

How the data were processed

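Per the submitters' processing notes, the tools were Trimmomatic 0.39, STAR 2.6.1d and RSEM 1.3.2 and the build GRCh38, with no role stated. Strandedness and annotation release: not given in the sources used here. Of the expected counts that the authors deposited, 15.5% (CBS) and 15.7% (empty vector) were not whole; they were rounded. The authors also deposited TPM, scaled for length and depth.

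The filter kept genes reaching 10 counts in 1 library and 1 CPM on average. TMM factors (edgeR 4.0.16, R 4.3.3, no model fitted) were 1.03 for CBS and 0.975 for the empty vector. Log2 folds (CBS over empty vector) used a prior count of 5. Intervals for ratios are exact conditional binomial (Clopper-Pearson) intervals without the prior count, those for counts are exact Poisson intervals, and those for pairs are exact conditional odds ratios (scipy 1.17.1). Reads are not independent molecules, so the intervals cover counting error only. A gene was called at 1.5-fold with an interval excluding 1. In log2(TPM + 1) and with the GC and length trend removed, calls used the fold alone. The calculation was tested on simulated data. The alternatives were DESeq2 1.42.0 size factors, library totals, log2(TPM + 1), prior counts of 1 and 20, other filters and thresholds, and removal of a lowess trend (span 0.3) on GC content and length from GENCODE 29 transcripts, matched for 99.4% of kept genes.

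All members are described. From each related list, up to 4 genes with the largest absolute log2 fold, at least 100 counts and an interval excluding 1 were named. One result under that rule is not reported here. Members and lists were chosen with earlier results of these data known. Symbols of 5 list genes were matched through gene IDs.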

Additional observations from a re-analysis of the deposited data

How the results depend on the processing

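No paired analysis was possible because each group held 1 library. For the same reason no library could be left out. The number of enzymes called higher was 2 with DESeq2 size factors, library totals, prior counts of 1 or 20 and either other filter. It was 1 in the authors' TPM and 1 after removal of the GC and length trend, where MTHFD1 stood at 0.52 and 0.57 on the log2 scale and SHMT1 was the enzyme that remained. At a threshold of 2-fold in scaled counts it was 0, although SHMT1 was 2.17-fold higher in TPM. At a laxer threshold of 0.32 on the log2 scale 4 enzymes were higher and 1, MTHFD2, was lower. The counts over all genes moved too, from 934 higher and 1712 lower to 188 and 703 at 2-fold and to 2558 and 2880 at the laxer one. Scaling by library totals changed their balance to 1279 higher and 1466 lower. In TPM it was 1221 higher and 1110 lower, with 1 added to each TPM and no interval rule, so not by scaling alone. With at least 100 counts required, 1139 genes were lower. The median log2 fold of the enzymes was 0.18 without the filter, which adds ALDH1L2, and between 0.19 and 0.34 under the other alternatives. In TPM the difference between MTHFD1 and MTHFD1L was -0.010, against 0.24 in counts, and it was 0.20 with the trend removed. Of 59 values of single enzymes under alternatives, 46 stayed within the counting interval and 13 moved beyond it, none with a change of sign in a called gene. All 13 came with library totals, TPM or removal of the trend, and most of them with TPM. DESeq2 size factors were close to the TMM scaling, and other prior counts change the folds of well-counted genes little. Those alternatives could hardly move a value, so the 46 overstate how stable the folds are. Medians of the related lists could not move under other thresholds, which change calls only. Counting them, of 150 medians and counts of these lists, 131 were within their limits and 19 moved. Most of these 19 came with the other thresholds, and the rest were the counts of regulators, the median of nucleotide synthesis in TPM (0.59), and the median and lower calls of the folate cycle with at least 100 counts. Depth limits ALDH1L2 and MTHFD2L most.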

Other observations

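Genes around glycine cleavage and mitochondrial serine entry were also measured, and those named here were chosen after their values were seen. Values after a gene are log2 folds, CBS over empty vector, with their counting interval. The glycine cleavage system, which splits glycine inside mitochondria and yields a one-carbon unit, had few transcripts of its decarboxylase GLDC, with 20 counts in CBS cells and 8 in empty-vector cells. GLDC did not pass the filter, and its interval held no difference (-0.02 to 2.62). AMT, the aminomethyltransferase, had 28 (CBS) and 58 (empty vector) counts and a log2 fold of -1.02 (-1.85 to -0.47). GCSH, the lipoyl carrier protein, and DLD, the dehydrogenase shared with other complexes, were at 0.39 (0.19 to 0.59) and 0.46 (0.36 to 0.56). The components above the filter thus did not share a direction. The lower one, AMT, was scarce, at 1.27 TPM in CBS cells and 2.73 TPM in empty-vector cells.

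Of the sideroflexins, SFXN1, a mitochondrial serine carrier, had 4191 counts in CBS cells and 2995 in empty-vector cells and a log2 fold of 0.39 (0.32 to 0.45). SFXN3 stood on the other side of a ratio of 1, with 1226 (CBS) and 1802 (empty vector) counts and a log2 fold of -0.65 (-0.76 to -0.55), while SFXN2 was the highest of them at 1.40. With the trend on GC and length removed SFXN3 was at -0.58, just under 1.5-fold. At the plasma membrane, the neutral amino acid carrier SLC1A4 was at -0.79 (-1.06 to -0.55) and its relative SLC1A5 at -0.10 (-0.14 to -0.06). In TPM with 1 added, SLC1A4 was at -0.39, under 1.5-fold, and SLC1A5 turned to 0.07. With that trend removed SLC1A5 was at 0.10. SRR, which turns L-serine into D-serine, had 186 (CBS) and 101 (empty vector) counts and a log2 fold of 0.75 (0.43 to 1.15).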
